A study of Mus musculus with 2 samples.

Results

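Natural killer (NK) cells were examined in the bone marrow of 1 WT mouse and 1 DKO mouse, each sequenced as 1 droplet library of single cells. The DKO mouse carried VavCre:Ddx41 fl/fl and cGAS-/-, and the WT mouse was a control of the kind used for it, a Ddx41 fl/fl littermate that had no VavCre and wild-type cGas alleles. Both mice were 2 months old, and both therefore carried the floxed Ddx41 allele, whereas only the DKO mouse carried Cre and lacked cGas. VavCre is active in blood-forming cells generally, so that Ddx41, a DEAD-box helicase, was targeted before NK cells arise and not in NK cells alone.

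The 124 NK cells, 81 from the WT and 43 from the DKO library, were selected on their transcript counts among 33691 droplet barcodes with at least 500 unique molecules (UMIs) and at most 20% mitochondrial UMIs. A barcode needed hemoglobin under 20% of its UMIs, at least 3 UMIs of Klrd1, Gzma, Ncr1 and Klrb1c taken from at least 2 of these genes, and 0 UMIs of the T cell receptor genes Cd3e, Cd3d and Cd3g. It also needed fewer than 3 UMIs of the B cell receptor genes Cd79a and Cd79b, fewer than 5 UMIs of the basophil gene Mcpt8, and S100a8, S100a9, Camp, Ngp and Ltf under 5% of UMIs. Each genotype was represented by 1 library, so how much mice of a genotype vary is unknown, no difference between genotypes was tested, and every interval given covers counting error only.

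NK cells are innate lymphocytes that kill infected or transformed cells by releasing perforin and granzymes and that secrete chemokines and interferon gamma. They read their targets through paired sets of activating and inhibitory receptors, many encoded side by side in the NK gene complex, whose inhibitory members bind MHC class I molecules. In the mouse they develop in the bone marrow under interleukin-15 and the T-box factors Eomes and T-bet, and mature from cells with surface CD27 to cells with CD11b and KLRG1 that leave for the blood.

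NK cells were rare in both marrows. They made up 0.410% of the 19764 kept WT barcodes (exact Clopper-Pearson 95% interval 0.326% to 0.509%) and 0.309% of the 13927 kept DKO barcodes (0.224% to 0.416%). Over barcodes with little hemoglobin, which leaves out most red cell precursors, the shares were 0.699% in WT and 0.548% in DKO. The intervals overlapped with either denominator. The WT barcodes were taken from an unfiltered matrix and the DKO barcodes from one of called barcodes, so the denominators were not formed alike.

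The selection was decided mainly by the T cell genes. In the WT library 219 barcodes passed the NK gene requirement, of which 133 held a Cd3 UMI and 5 more failed another limit. In the DKO library 117 passed it, 73 held a Cd3 UMI and 1 failed another limit. Most WT and DKO barcodes with strong NK gene signal were therefore left out because a Cd3 transcript was present, and 118 WT and 70 DKO barcodes that failed only on Cd3 had Ccl5 at 6323 and 5327 CPM (summed UMIs of a gene per 1000000 UMIs of the same barcodes). Just inside the threshold, with 3 or 4 UMIs of the NK genes, lay 5 WT barcodes and 1 DKO barcode. Of these 5 WT barcodes, 2 held Ccl5, 2 Nkg7, 3 Il2rb and 3 Klre1. Lyz2 was at 6796 CPM over the 5, counted in 1 of them. The DKO barcode held Klre1 but 0 UMIs of Ccl5, Nkg7 and Il2rb, so some barcodes at the edge carried little other NK signal. Just outside the threshold, with 2 UMIs from 2 genes, lay 0 WT barcodes and 1 DKO barcode. A further 129 WT and 52 DKO barcodes had at least 3 UMIs from only 1 of the NK genes, and these held the MHC class II chain Cd74 at 4360 and 4638 CPM, against 54.0 and 23.3 CPM in the NK cells.

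The 4 genes of the selection are given as a description, since they chose the cells. Klrd1 encodes CD94, which pairs with NKG2 chains, and lies at chr6:129591782-129598775. It had 366 UMIs in 75 of 81 WT cells and 228 UMIs in 40 of 43 DKO cells, or 1041 and 884 CPM. Ncr1 encodes the activating receptor NKp46, at chr7:4337724-4345164, and had 316 UMIs in 78 WT cells and 219 UMIs in 42 DKO cells. Klrb1c, at chr6:128778485-128789215, encodes the NK1.1 antigen, and its 394 UMIs in 78 WT cells and 328 UMIs in all 43 DKO cells gave 1120 and 1272 CPM. These 3 receptors thus lay within a narrow band of levels in both libraries.

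Gzma, at chr13:113093825-113100981, was the most uneven of the 4. It encodes granzyme A, a protease of the killing granule. A total of 1152 UMIs came from 59 of 81 WT cells and 477 UMIs from 26 of 43 DKO cells, giving 3276 and 1850 CPM. Per cell and 10000 UMIs, Gzma ran from 0 to 218 with a median of 16.7 in WT, and from 0 to 113 with a median of 3.60 in DKO, so that both libraries held cells with none and cells with a great deal. The selection required all 4 genes of no cell, and 53 WT and 25 DKO cells had UMIs of all 4.

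**Figure D1:**
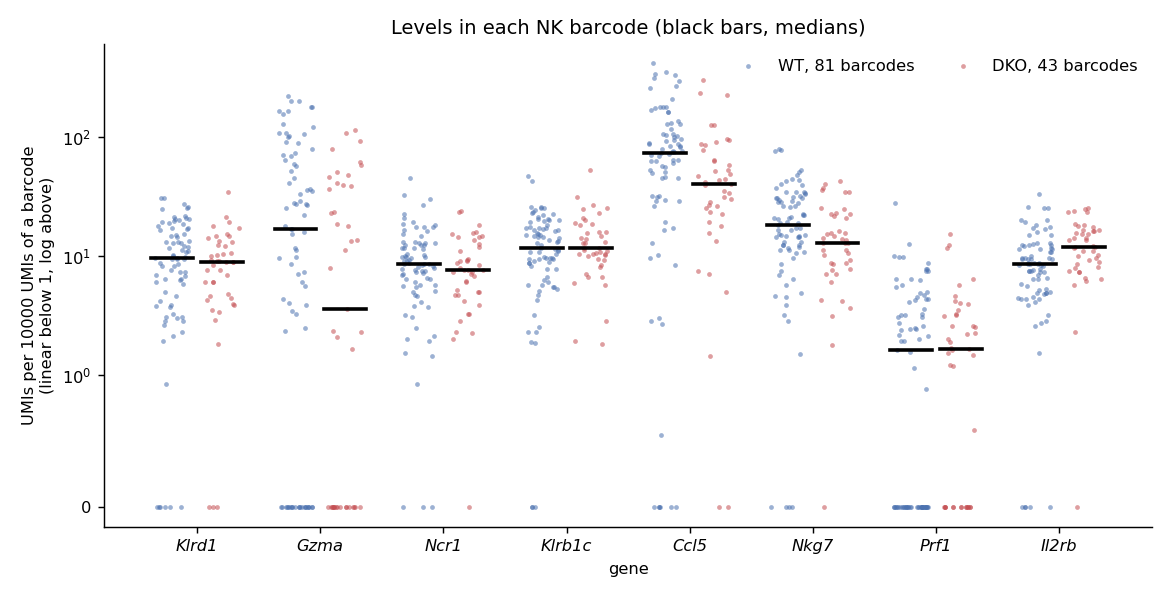
Levels of 8 genes in each NK barcode, as UMIs per 10000 UMIs of that barcode on an axis that is linear below 1 and logarithmic above it, with WT barcodes in blue, DKO barcodes in red and medians as black bars. The first 4 genes chose the barcodes; Gzma splits each library into barcodes at 0 and barcodes up to 218 (WT) and 113 (DKO), while Klrb1c has medians of 11.6 and 11.5.

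The promoters of 3 of these genes are shown because the RUNX core motif, TGTGGT on either strand, occurs in each. RUNX factors are known regulators of NK and cytotoxic T cell genes, and Runx1 and Runx3 transcripts were present here at 404 and 134 CPM in WT and 706 and 175 CPM in DKO NK cells. Each window runs from 250 bases before to 50 bases after the RefSeq start (build GRCm38.p6), is written 5′ to 3′ along the gene, and has every RUNX match in capitals.
Ncr1, chr7:4337465-4337764 (+ strand): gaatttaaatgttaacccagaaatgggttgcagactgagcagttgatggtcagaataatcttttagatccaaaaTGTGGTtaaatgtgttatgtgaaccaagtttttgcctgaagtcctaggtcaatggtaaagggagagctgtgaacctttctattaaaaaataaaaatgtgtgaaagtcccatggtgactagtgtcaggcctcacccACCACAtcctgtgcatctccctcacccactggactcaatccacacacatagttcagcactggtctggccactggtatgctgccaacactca
Gzma, chr13:113100932-113101231 (- strand): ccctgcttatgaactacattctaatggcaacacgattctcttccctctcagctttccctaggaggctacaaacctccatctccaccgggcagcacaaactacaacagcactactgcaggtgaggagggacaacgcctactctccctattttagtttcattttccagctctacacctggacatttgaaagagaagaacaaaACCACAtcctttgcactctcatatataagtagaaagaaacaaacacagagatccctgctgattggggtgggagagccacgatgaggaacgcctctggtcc
Klrb1c, chr6:128788592-128788891 (- strand): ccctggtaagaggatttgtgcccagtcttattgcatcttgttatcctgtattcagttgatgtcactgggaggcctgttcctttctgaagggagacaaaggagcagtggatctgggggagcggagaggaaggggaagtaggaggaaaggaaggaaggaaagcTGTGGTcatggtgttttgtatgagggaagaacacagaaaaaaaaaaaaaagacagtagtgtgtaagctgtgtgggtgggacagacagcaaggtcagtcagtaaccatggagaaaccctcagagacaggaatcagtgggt
The Ncr1 window held 2 matches and the other windows 1 each. Of the 4 selection genes and 15 further NK identity genes, 12 had a RefSeq window, and 8 of these 12 held TGTGGT or its reverse, against 16.9% of all 27025 windows of the same length. The T-box core GGTGTGA, read on either strand, was in 3 of 12, against 3.96% of all windows. The ETS core GGAAGT, likewise read on either strand, was in 6 of 12, against 24.1%. A match of letters is not a bound site, and no binding data were analysed here.

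Genes of cytotoxic lymphocytes that the selection did not use were also found in these cells. Ccl5, a chemokine of cytotoxic lymphocytes, was found in 75 of 81 WT and 41 of 43 DKO cells, Nkg7, a granule protein, in 77 and 42, and Il2rb, the receptor chain shared by interleukin-2 and interleukin-15, in 76 and 42. Eomes was found in 36 WT cells and 21 DKO cells. After each cell was thinned to 1000 UMIs, Nkg7 was seen in 73.8% of 80 WT NK cells (interval 62.7% to 83.0%) and 76.7% of 43 DKO NK cells (61.4% to 88.2%), against 0.8% and 0.6% of B cells. B cells should lack these transcripts, but they were taken without any UMI of the selection genes. Their share may therefore understate what free RNA in the droplets gives. Eomes and Il2rb were seen in 0.0% of thinned B cells of both libraries.

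The same genes were set beside T cells (232 WT and 88 DKO barcodes) and B cells (2316 and 1533 barcodes) of the same libraries. T cells were taken with at least 3 Cd3 UMIs and fewer than 3 UMIs of the 4 NK genes, so those genes are low there by construction. B cells were taken with at least 3 Cd79 UMIs and without any UMI of the Cd3 or NK genes. Ccl5 stood at 7715 CPM in WT NK cells, 2413 CPM in WT T cells and 1.53 CPM in WT B cells. Tyrobp, the adaptor of activating NK receptors also known as DAP12, stood at 2272 CPM in WT NK cells, 172 CPM in T cells and 203 CPM in B cells. Il2rb was less set apart, with 870, 346 and 0.45 CPM in the same order. Eomes, at 185 CPM in WT NK cells, was at 44.7 CPM in T cells and 0.00 CPM in B cells. The barcodes left out only for a Cd3 UMI lay closer to the NK cells. In WT they had Ccl5 at 6323, Nkg7 at 1051 and Il2rb at 738 CPM, against 7715, 1976 and 870 CPM in NK cells. In DKO the values were 5327, 939 and 954 CPM, against 4964, 1423 and 1264 CPM. Ccl5 and Il2rb thus separated the NK cells little from those barcodes.

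Depth and purity bear on all that follows. The NK cells held 351638 UMIs in WT (median 3849 UMIs and 1736 genes per cell) and 257840 UMIs in DKO (median 5493 UMIs and 2250 genes), so the DKO cells were read more deeply. Hemoglobin was 0.320% and 0.237% of NK UMIs, which bounds free RNA at 2.21% of WT and 1.63% of DKO UMIs. No NK barcode sequence occurred in both libraries, although 82 sequences did among all kept barcodes, and no NK barcode passed a doublet score of 0.25. In the T cell marker list Cd4, Cd6, Cd8a and Cd8b1 were at 0 in both libraries, and the summed list ran from 0 to 2855 CPM per cell in WT and 0 to 1657 in DKO. Cd79a, Ms4a1 and Pax5 were at 0 among the B cell markers in both.

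Some NK barcodes carried transcripts of other cells or of division. A total of 7 of 81 WT and 2 of 43 DKO barcodes had at least 1% of their UMIs from the neutrophil, monocyte and macrophage markers, whose summed levels per cell reached 48470 CPM (neutrophil list) and 24060 CPM (monocyte list) in WT and 36810 and 2197 CPM in DKO. Ly6g was at 0 in the DKO NK cells and Fn1 likewise. The kinds overlapped, since 2 of the WT barcodes with myeloid transcripts were also among the dividing ones, and 13 WT barcodes were of either kind. One of these 2 held 172 Lyz2 UMIs and 0 UMIs of Nkg7, Ccl5 and Il2rb. With a limit of 15 UMIs over 42 S phase and G2/M genes, 8 of 81 WT barcodes were in cycle (9.88%, interval 4.36% to 18.5%), the lowest with 19 such UMIs and the next barcode with 8. In the DKO library 0 of 43 were, with an exact interval up to 8.22% (the limit of 3 counts allows up to 6.98%), and the highest had 13. Both kinds of barcode were set after the data were seen, and ratios without them are given below.

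Ddx41, the floxed gene, had 9 UMIs in WT and 3 UMIs in DKO NK cells, a log2 ratio of -0.87 (interval -3.66 to 0.87). Cgas had 7 UMIs and 2 UMIs, a log2 ratio of -0.97 (-4.66 to 1.03). Both are too thinly counted to show a difference, and 3′ tags need not lie in a deleted part, so neither is a check of the genotype labels.

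DKO NK cells were compared with WT NK cells over 1823 genes with a mean of at least 100 CPM in the 2 libraries, as the log2 ratio of summed CPM with 1 count added to each sum. In the DKO cells 84 genes were at least 2-fold higher (4.61% of those measured) and 44 were at least 2-fold lower (2.41%). These shares are the background for every count of list members past 2-fold given below. The median gene stood at 0.13, and where the libraries were scaled by the median ratio instead, 46 genes were higher and 65 lower. The share of calls that were higher thus moved from 65.6% to 41.4% with that scaling, to 53.2% when hemoglobin and ribosomal protein genes were left out of the totals (92 higher and 81 lower, over the 2306 genes that then reached the level limit), and to 48.3% when ratios were centred on the span class described next.

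The direction of the ratios followed the length of the gene on the chromosome. The 84 higher genes spanned a median of 127 kb, the 44 lower genes 5.12 kb and all 1823 genes 35.8 kb in the GENCODE annotation. By span, the 469 genes under 10 kb had a median log2 ratio of -0.30 and the 446 genes of 100 kb or more had 0.48. The T cells gave -0.24 and 0.48 for the same genes and the B cells -0.22 and 0.36, so the shift with span was not particular to NK cells. With each ratio centred on the median of its span class, 29 genes were at least 2-fold higher and 31 lower, of which 20 and 24 were among the 84 and 44. The part of span in any ratio of a named gene was not otherwise tested.

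**Figure D2:**
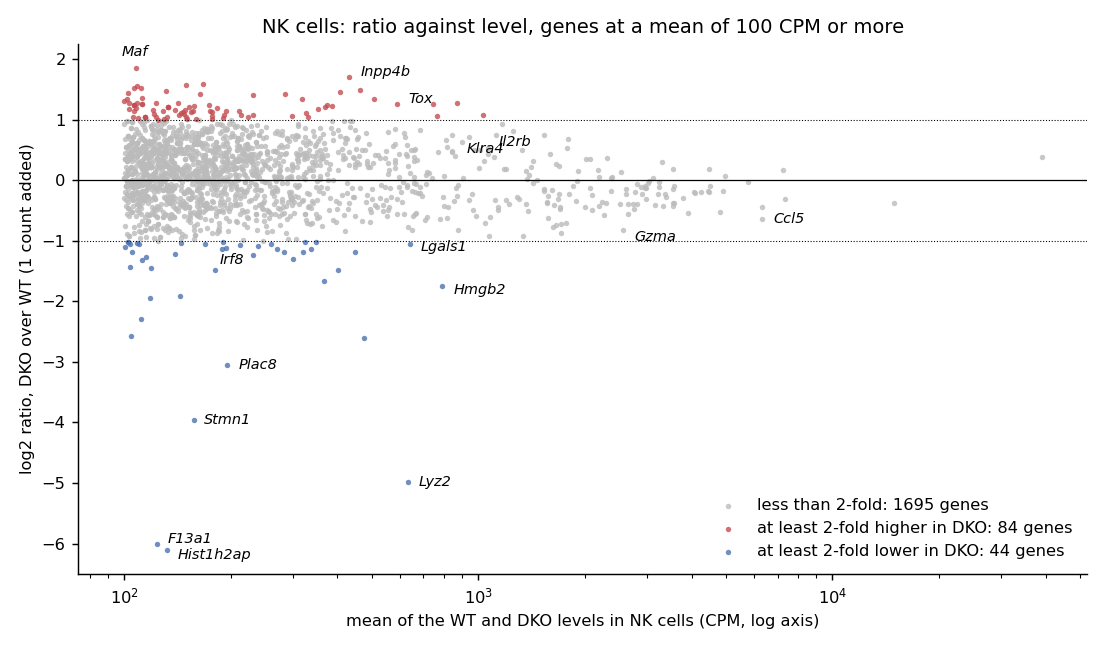
The log2 ratio of DKO over WT in NK cells against the mean level in CPM on a log axis, for 1823 genes, with 84 genes at least 2-fold higher in red, 44 at least 2-fold lower in blue and dotted lines at 2-fold. Hist1h2ap and F13a1 had 0 DKO counts, so their place depends on the count added; most lymphocyte genes, such as Klra4, Il2rb and Gzma, lie between the dotted lines.

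Several of the lowest genes were counted mostly in the myeloid and dividing barcodes. Lyz2, the lysozyme of macrophages and neutrophils, had 432 UMIs in WT and 9 in DKO NK cells, but 3 WT barcodes held 183, 172 and 59 of them, and its log2 ratio went from -4.99 to -0.29 when both kinds of barcode were left out. F13a1, a monocyte transcript, had 87 UMIs in 5 WT cells and 0 in DKO, at least 21.3-fold lower against a floor of 3 counts. Hist1h2ap, a replication histone, had 93 UMIs in 9 WT cells and 0 in DKO, at least 22.7-fold lower, and 93.4% of the sequence words in its 3′ end occur in other genes as well, so its count is uncertain. Stmn1, which regulates microtubules in dividing cells, had 105 and 4 UMIs. Its log2 ratio of -3.96 became -1.34 without those barcodes.

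Hmgb2 and H2afx, chromatin proteins abundant in dividing cells, went the same way. Hmgb2 was found in 66 WT and 35 DKO cells with 430 and 93 UMIs, a log2 ratio of -1.75 (-2.10 to -1.43) that became -0.59 without the myeloid and dividing barcodes. H2afx went from -2.57 to -0.86. In T cells Hmgb2 had a log2 ratio of -1.30 and in B cells 0.01.

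Of other genes of the lowest 10, Esd and Ranbp1 kept more of their ratio without these barcodes than Plac8 and Lgals3 did. Esd, an esterase, was at -1.94 with 67 and 12 UMIs, and Ranbp1, a partner of the nuclear transport factor Ran, at -1.91 with 81 and 15 UMIs. Without the myeloid and dividing barcodes these were at -1.72 and -1.64. Plac8 (-3.06) and Lgals3 (-2.30), which are found in myeloid cells as well, became -1.55 and -1.24. At 1000 UMIs per cell Esd was at -2.19, Ranbp1 at -0.91, Plac8 at -2.805 and Lgals3 at -1.27.

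Among the 10 highest genes, Cxcr4, the receptor that holds blood cells in the marrow through CXCL12, had 19 UMIs in 13 of 81 WT cells and 41 UMIs in 23 of 43 DKO cells, a log2 ratio of 1.52 (0.74 to 2.42). At 1000 UMIs per cell it was seen in 1.2% of WT cells (interval up to 6.8%) and 14.0% of DKO cells (5.3% to 27.9%), but also in 13.3% and 28.2% of B cells. Its log2 ratio was 1.62 in T cells and 0.95 in B cells, so a higher Cxcr4 count in the DKO library was not particular to NK cells. Cxcr4 spans 4.09 kb, and centred on its span class its ratio was 1.82.

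Maf, a transcription factor, had 16 UMIs in WT and 44 in DKO (log2 ratio 1.85), and Inpp4b, a lipid phosphatase, 71 and 171 UMIs (1.70). A DKO barcode of 17207 UMIs without Gzma held 18 of the Maf and 60 of the Inpp4b UMIs, together with 79 of the 154 DKO UMIs of Arid5b (76 in WT, 1.46). Without the richest barcode of each library Arid5b was at 0.60. Gm36723, a gene with no assigned function, had 85 and 177 UMIs (1.50), and Foxo3, a forkhead factor, had 24 and 50 (1.48). Mxd1, a MYC antagonist found in neutrophils, was at 1.55 but at -0.07 without the myeloid and dividing barcodes, since 2 DKO barcodes held 18 and 12 of its 42 UMIs. The remaining members of the highest 10, AU020206, Immp2l and Gbe1, lay between 1.51 and 1.59, but at 1000 UMIs per cell AU020206 was at 0.38, Gbe1 at 0.90 and Immp2l at 2.36. Arid5b was then at 0.16. Centred on span class, Inpp4b was at 1.22, Gm36723 at 1.01, Foxo3 at 1.15, Gbe1 at 1.03, Immp2l at 1.09 and Arid5b at 0.97. Maf, Mxd1 and AU020206 were at 1.95, 1.65 and 1.685 when so centred. Inpp4b spans 785 kb and Immp2l 932 kb.

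The measured receptors by which NK cells recognise targets stayed under 2-fold. Of 12 measured activating and co-activating receptors, 0 passed 2-fold in either direction and the median was 0.11. Klrk1, which encodes NKG2D, was found in 71 of 81 WT and 43 of 43 DKO cells at 936 and 1074 CPM. Klre1, an NKG2-like chain, was among the lower, with 278 UMIs in 74 WT cells and 140 UMIs in 35 DKO cells, a log2 ratio of -0.54 (-0.85 to -0.24). In thinned cells it was seen in 61.2% of WT (49.7% to 71.9%) and 32.6% of DKO cells (19.1% to 48.5%), the only pair of intervals that did not overlap among the 49 genes so examined. Cd226, the adhesion receptor DNAM-1, was the highest of the list at 0.79 with 124 and 157 UMIs. Of the inhibitory receptors only Klrc1 (NKG2A) and Klrb1b were measured, at 0.37 and 0.22.

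The Ly49 receptors, encoded by the Klra genes on chromosome 6, are each expressed by a subset of NK cells, so that cells differ in the set they carry. Klra4 encodes Ly49D and Klra8 encodes Ly49H, both activating. Klra4 led in both libraries, with 261 UMIs in 31 WT cells and 253 UMIs in 15 DKO cells, and Klra8 followed with 215 UMIs in 38 and 126 UMIs in 17. Klra7 (Ly49G) had 111 UMIs in 33 WT cells and 63 in 11 DKO cells. Klra9 (Ly49I) had 75 and 64, Klra1 (Ly49A) 37 and 32, and Klra3 (Ly49C) 36 and 41. Klra6 was counted 9 times in WT and 0 times in DKO, Klra2 8 and 2 times, Klra10 4 times in each, Klra17 once in each, and Klra5 was not detected in either library.

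The 6 measured Ly49 genes lay between -0.36 and 0.63 with a median of 0.23, and without the myeloid and dividing barcodes the median was -0.16. The genes share sequence, 70.2% of the 3′ words of Klra9 and 44.5% of those of Klra8 for example, so the split of counts between members is uncertain. Per cell, 22 of 81 WT cells and 13 of 43 DKO cells had no Ly49 UMI, and 32 and 19 cells had UMIs of at least 3 members. Klra4 and Klra8 were found together in 22 WT and 11 DKO cells. Of cells thinned to 1000 UMIs, 36.2% of WT and 51.2% of DKO cells had none.

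The adaptors that carry these receptors' signals had a median of 0.41 over 14 measured genes, with 0 past 2-fold. Fcer1g and Tyrobp, the adaptors with activation motifs, were counted in 77 and 76 WT cells and 42 and 40 DKO cells and stood at -0.23 and -0.24. The exchange factor Vav3 (0.70) and the kinase Fyn (0.43) had ratios above 0. The list's median span was 60.6 kb, and centred on span class its median was 0.08. Fcer1g and Tyrobp span 4.79 and 3.83 kb, and all genes under 10 kb had a median of -0.30. The part of span in these ratios was not tested.

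**Figure D3:**
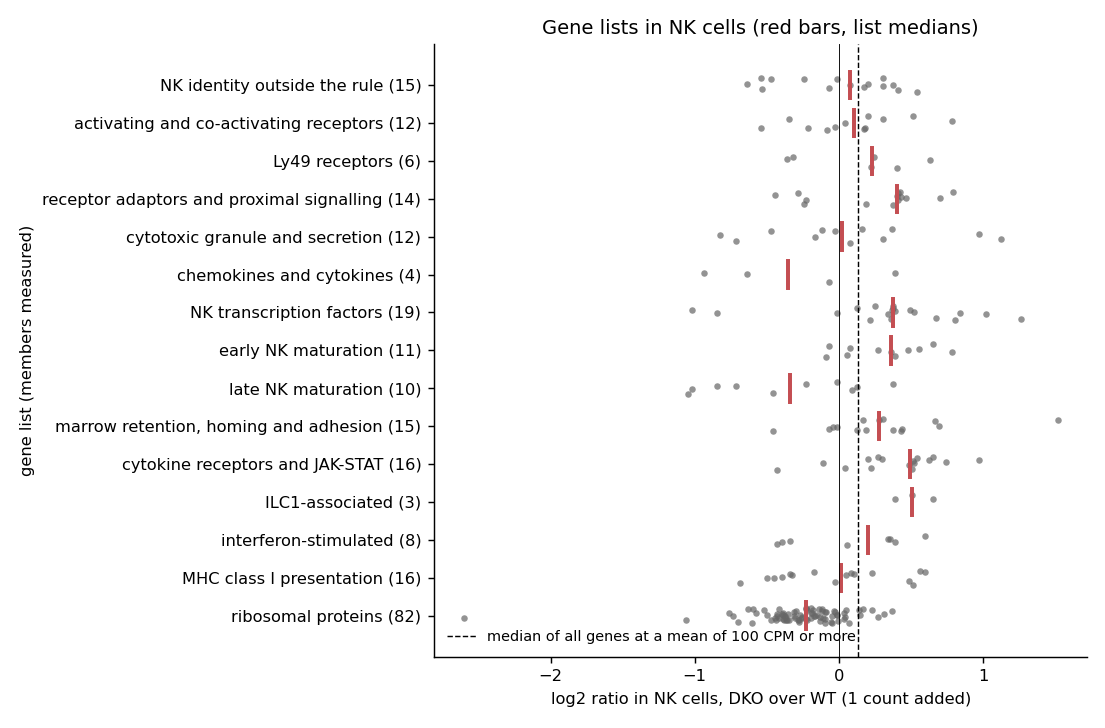
The log2 ratio of DKO over WT in NK cells for the measured members of 15 gene lists, each point a gene and each red bar a list median, with the median of all 1823 genes (0.13) dashed. The late maturation list has its median at -0.34 and the early list at 0.36; ribosomal protein genes sit mostly below 0.

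Granule genes were mixed. Of 12 measured genes of the cytotoxic list, 1 was at least 2-fold higher (Rab27a, which docks granules, 34 and 55 UMIs, 1.13) and 0 lower, against 4.61% and 2.41% of all genes, with a median of 0.02. Rab27a was at 0.80 when centred on span class and at 0.85 without the myeloid and dividing barcodes. Gzma was the lowest of the 12 at -0.82 (-0.98 to -0.67), and Gzmb, granzyme B, was next with 55 UMIs in 26 WT cells and 24 UMIs in 10 DKO cells (-0.72, -1.50 to -0.03). Prf1, perforin, was closer, with 83 and 54 UMIs in 44 and 28 cells (-0.16, -0.69 to 0.34). Lyst, a regulator of granule size, had 99 and 143 UMIs (0.97) and spans 188 kb. Leaving out the myeloid and dividing barcodes took Gzma to -1.10 and Gzmb to -1.05, so that 2 genes of the list were then at least 2-fold lower, and took Lyst to 1.11, the 1 then higher. For Gzma, centring on span class took it to -0.52. Because Gzma helped to choose the cells, its ratio and its place in these counts are a description.

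Chemokines were led by Ccl5, with 2713 UMIs in WT and 1280 UMIs in DKO NK cells. That is 7715 and 4964 CPM, a log2 ratio of -0.64 (-0.73 to -0.54), against 2413 and 2274 CPM in T cells. The ratio of Ccl5 was -0.95 without the myeloid and dividing barcodes and -0.33 when centred on span class, both outside that interval. Per 10000 UMIs of a cell the median was 72.7 in WT and 39.8 in DKO, and the ranges, 0 to 416 and 0 to 299, overlapped almost wholly. Ccl4 had 59 UMIs in 23 WT cells and 22 UMIs in 9 DKO cells (-0.94). Xcl1, which attracts dendritic cells, had 241 and 168 UMIs, with an interval that included 0 (-0.07, -0.37 to 0.22).

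The medians of the early and late maturation lists lay on different sides of 0. Of 11 measured genes of the early list, 9 were above 0 and 2 below, with a median of 0.36, and of 10 measured genes of the late list, 3 were above 0 and 7 below, with a median of -0.34, while 1075 of all 1823 genes were above 0. Past 2-fold were 0 of the early list and 2 of the late list, both lower, against the 2.41% of all genes that were lower, and centred on span class neither of these 2 passed it. Centred on span class the medians were 0.38 and -0.37, and without the myeloid and dividing barcodes they were 0.24 and -0.29. In T cells the same lists stood at 0.21 and -0.09, and in B cells at -0.11 and -0.15.

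Among late genes, Zeb2, a factor of terminal maturation, had 190 UMIs in 46 of 81 WT cells and 77 UMIs in 22 of 43 DKO cells (-0.84, -1.26 to -0.47). Zeb2 spans 134 kb and was at -0.38 without the myeloid and dividing barcodes. Lgals1, galectin-1, had 304 UMIs in 57 and 107 UMIs in 23 cells (-1.05, -1.39 to -0.74), and Irf8 90 UMIs in 38 and 32 UMIs in 16 cells (-1.02, -1.67 to -0.45). Without those barcodes they were at -0.87 and -1.09. Irf8 is also a marker of plasmacytoid dendritic cells, whose list of 7 genes summed to 489 CPM in WT (0 to 10810 CPM per cell) and 159 CPM in DKO (0 to 1401 CPM), with Klk1 and Ly6d at 0 in DKO, and their part in the Irf8 ratio was not tested. Klrg1, a marker of the last stage, was counted 10 times in WT and once in DKO, and S1pr5, the receptor by which NK cells leave the marrow, 10 and 4 times. Itgam, which encodes CD11b, had 42 and 22 UMIs (-0.46, -1.30 to 0.29).

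Among early genes, Cd27 had 38 UMIs in 26 of 81 WT cells and 41 UMIs in 25 of 43 DKO cells (0.55, -0.12 to 1.23). Cxcr3 had 21 and 28 UMIs (0.85), Thy1 41 and 42 (0.48) and Il7r, the interleukin-7 receptor, 57 and 66 (0.66, 0.13 to 1.20), of which 1 WT barcode held 27 and 1 DKO barcode 17. Without the richest barcode of each library the ratio of Il7r was 1.15. After thinning, Cd27 was seen in 8.8% of WT and 7.0% of DKO cells and Itgam in 16.2% and 9.3%, with overlapping intervals, so at this depth the share of cells with either marker could not be told apart between the libraries. In the full counts 19 WT and 17 DKO cells had Cd27 without Itgam or Klrg1, and 22 and 7 cells had Itgam or Klrg1 without Cd27.

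**Figure D4:**
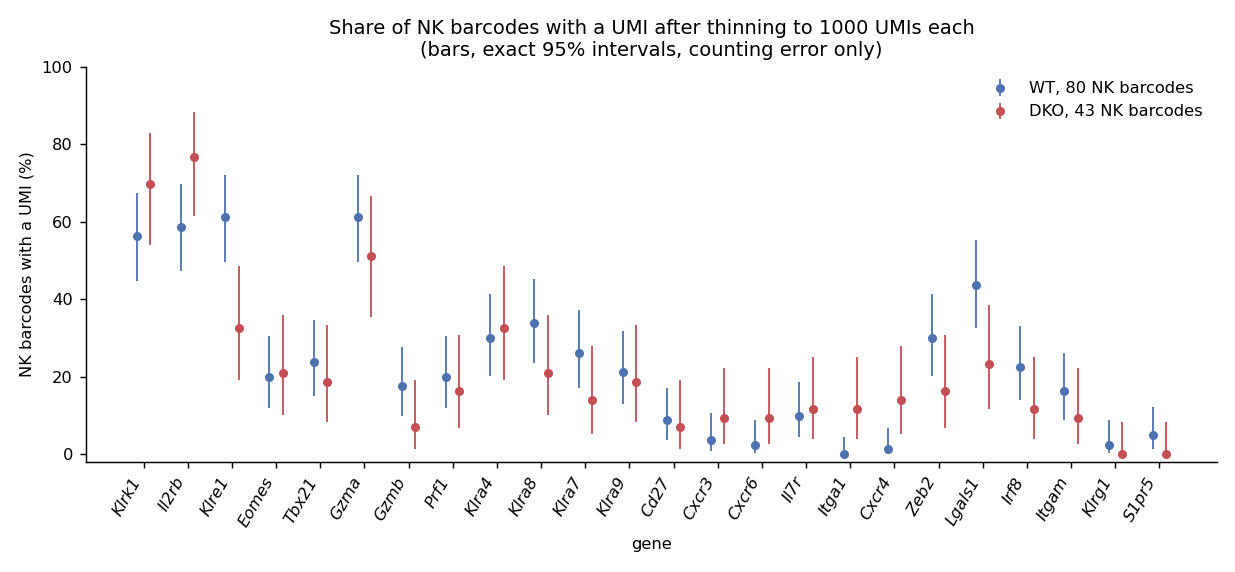
The percentage of NK barcodes with a UMI of each of 24 genes after every barcode was thinned to 1000 UMIs, for 80 WT (blue) and 43 DKO (red) barcodes, with exact 95% intervals as bars. The WT and DKO intervals of Klre1 do not overlap (61.2% and 32.6%), those of the other genes plotted do, and Klrg1 and S1pr5 were at 0 in DKO.

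The transcription factors of NK cells had a median of 0.37 over 19 measured genes, with 2 at least 2-fold higher, Tox and Ikzf2, and 1 lower, Irf8, against 4.61% and 2.41% of all genes. Centred on span class these were at 0.78, 0.54 and -0.92, so none stayed past 2-fold, and without the myeloid and dividing barcodes Tox was just under it. Tox, required for NK development, had 122 UMIs in 46 WT cells and 215 UMIs in 35 DKO cells (1.26, 0.94 to 1.60). Eomes (65 and 47 UMIs, -0.01) and Tbx21, which encodes T-bet (63 and 65 UMIs, 0.49, -0.03 to 1.02), had intervals that included 0. Id2, which is needed for innate lymphoid cells, had 338 and 322 UMIs (0.38). The list's median span was 87.9 kb, and centred on span class its median was 0.06.

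Cytokine receptors and their kinases had a median of 0.50 over 16 genes, with 0 past 2-fold, and 0.24 when centred on span class. T cells gave the list 0.50 and B cells 0.01. Il2rb had 306 UMIs in 76 WT cells and 326 UMIs in 42 DKO cells (0.54, 0.31 to 0.77), and its span is 16.0 kb. Jak1, the kinase bound to it, had 294 and 306 UMIs (0.51). Bcl2, a survival protein that interleukin-15 sustains, had 294 and 362 UMIs (0.75, 0.52 to 0.97) and spans 176 kb.

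Of 15 measured genes of marrow retention, homing and adhesion, 1 was at least 2-fold higher (Cxcr4) and 0 lower, with a median of 0.28. Of all genes 4.61% were higher and 2.41% lower. Ccr2 (160 and 142 UMIs, 0.28) and Itga2, which encodes CD49b (100 and 71, -0.04), had intervals that included 0. Itgal, the LFA-1 chain, was at 0.69 with 113 and 134 UMIs.

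The interferon-stimulated and MHC class I genes that reached the level limit showed no common direction. Signalling by cGAS can induce such genes in other settings. Of 8 measured interferon-stimulated genes 0 passed 2-fold, with a median of 0.20, and of 16 MHC class I presentation genes 0 did, with a median of 0.01. The interferon list holds 48 genes, most of them below the limit. Of these 48, 46 had a UMI in the WT cells and 40 in the DKO cells, which held fewer UMIs in total. Of all genes 11775 and 10884 had one. H2-K1 had 885 and 574 UMIs (-0.18) and B2m 546 and 469 UMIs (0.23). Below the level limit, and chosen after its values were seen, Bst2, which encodes tetherin, had 42 UMIs in 21 WT cells and 4 UMIs in 4 DKO cells (-2.66, -4.89 to -1.48), with -0.92 in T cells and -0.86 in B cells, and it belongs to the same dendritic marker list as Irf8.

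Of 82 measured ribosomal protein genes 70 were below 0, with a median of -0.23. Of these genes 0 were at least 2-fold higher and 2 at least 2-fold lower, against 4.61% and 2.41% of all genes. T cells gave -0.22 and B cells -0.20. Centred on span class the median was 0.06, so the direction of this family depended on that choice. The 6 measured snoRNA host genes had a median of -0.33, and -0.02 when centred.

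NK cells with and without a Gzma UMI were set side by side within each library, with the myeloid and dividing barcodes left out. The WT library gave 51 cells with Gzma and 17 without, and the DKO library 25 and 16, and their median depths were 3309 and 4403 UMIs in WT and 5315 and 5462 UMIs in DKO. In total they held 175683 and 71690 UMIs in WT and 144663 and 96570 UMIs in DKO, so the lowest levels given below rest on very few UMIs. Of 1814 measured genes, 23 were at least 2-fold higher in cells with Gzma in both libraries (1.27%) and 24 at least 2-fold lower in both (1.32%), out of 88 higher and 76 lower in WT and 79 higher and 122 lower in DKO. A further 5 passed 2-fold in opposite directions, among them Ccl4 (1.17 in WT and -1.32 in DKO), so most differences of either library were not shared. Of the 4 measured chemokine genes the median was 0.80 in WT and -1.27 in DKO, and that of 82 ribosomal protein genes was -0.18 and 0.37. Because Gzma helped to choose the cells, and a cell without it had to pass on the other receptors, these values are a description.

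Of 11 measured genes of the cytotoxic list 2 were higher in cells with Gzma in both libraries, Prf1 and Gzmb, and Lyst was lower in both, while Fasl, the ligand of the death receptor FAS, was at 2.29 in WT and -0.58 in DKO. Of 6 measured Ly49 genes 3 were higher in both and 0 lower. Prf1 stood at 381 against 41.9 CPM in WT and 311 against 62.1 CPM in DKO, and Gzmb at 290 against 13.9 CPM and 152 against 20.7 CPM. The intervals of their log2 ratios were wide, from 1.58 to 5.50 and 1.09 to 3.84 for Prf1. For Gzmb they ran from 1.84 to 9.71 in WT and 0.85 to 6.01 in DKO. Klra8 stood at 1093 against 167 CPM in WT and 733 against 166 CPM in DKO, and Klra4 and Klra7 were also among the 23. Zeb2 stood at 518 against 97.6 CPM and 491 against 20.7 CPM. Klf2, a factor of lymphocyte trafficking, Itga2 and Ccr2 were likewise higher in both. Of the 9 measured members of the late maturation list 4 were higher in both libraries, Zeb2, Gzmb, Klf2 and Lgals1, and 0 lower.

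Cells without Gzma had more Il7r, at 628 against 45.5 CPM in WT and 642 against 13.8 CPM in DKO. A single WT barcode, which passed the selection with 3 UMIs of the NK genes and had no Ccl5, held 27 of the Il7r UMIs, and without the barcode richest in Il7r in each library the level without Gzma was 276 CPM in WT and 567 CPM in DKO. Both counts changed little, to 27 and 21 genes, of which 22 and 20 were among the 23 and 24. Rora stood at 293 against 56.9 CPM in WT and 300 against 104 CPM in DKO, and the 3 measured genes of the list associated with type 1 innate lymphoid cells, Il7r, Ltb and Rora, were all lower in cells with Gzma in both libraries. Cd160, S100a4 and Ikzf2 were also among the 24. Of the 11 measured members of the early maturation list 3 were lower in cells with Gzma in both, Il7r, Ltb and Cd7, and 0 higher, so that the lists share Il7r and Ltb.

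Maf, Inpp4b and Gm36723, of the 10 genes highest in DKO over WT NK cells, were also in this group without Gzma. Inpp4b stood at 446 CPM in WT cells without Gzma against 108 CPM with it, and at 1377 against 249 CPM in DKO. Without the barcode richest in Il7r in each library, its levels without Gzma were 491 CPM in WT and 920 CPM in DKO. Inpp4b was thus higher in the DKO library on both sides of the split. The share of cells without a Gzma UMI was 22 of 81 in WT and 17 of 43 in DKO. After thinning, Gzma was seen in 61.2% of WT cells (49.7% to 71.9%) and 51.2% of DKO cells (35.5% to 66.7%), intervals that overlapped.

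**Figure D5:**
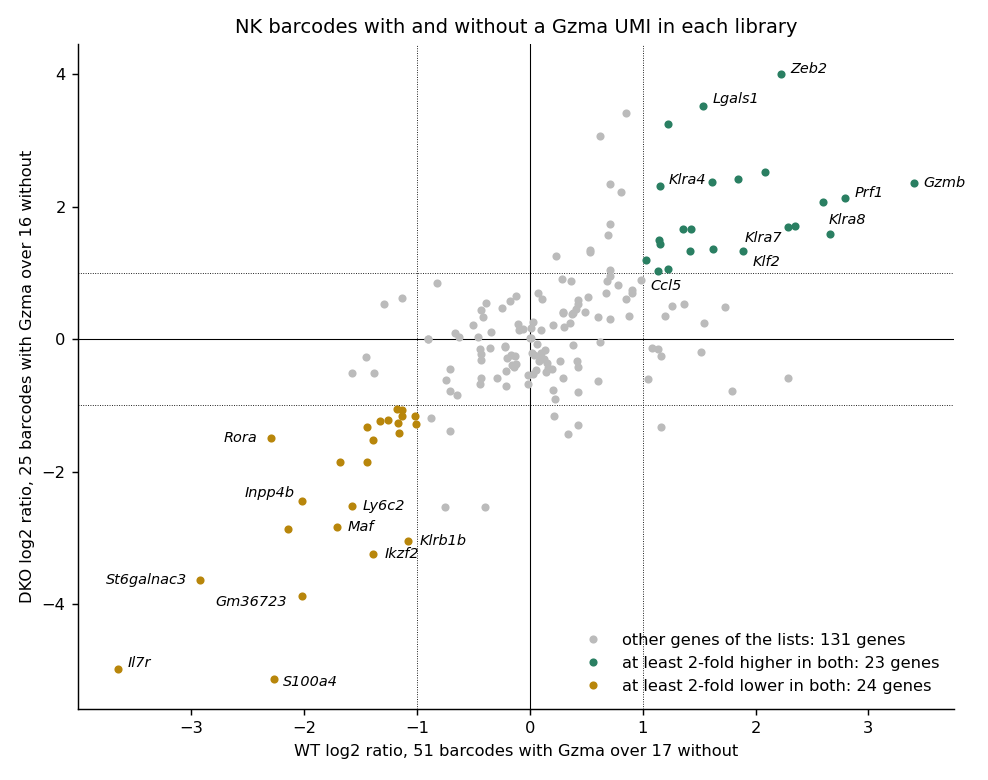
The log2 ratio of NK cells with Gzma over NK cells without it, in WT (x axis) and DKO (y axis), for the genes past 2-fold in both libraries and the members of the gene lists, with dotted lines at 2-fold. Il7r, S100a4 and St6galnac3 lie low in both libraries, and Gzmb, Prf1, Klra8 and Zeb2 lie high in both.

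Of the 10 genes of the type 1 innate lymphoid list 3 reached the level limit, Ltb (106 and 102 UMIs, 0.39), Il7r (0.66) and Rora (44 and 46 UMIs, 0.51), with 0 past 2-fold and a median of 0.51, against 1.07 in T cells and 0.11 in B cells. The others were more thinly counted. Itga1, which encodes CD49a and was chosen after its values were seen, had 2 UMIs in 2 of 81 WT cells and 19 UMIs in 11 of 43 DKO cells, and after thinning it was seen in 0.0% of WT (interval up to 4.5%) and 11.6% of DKO cells (3.9% to 25.1%), against 0.4% and 0.1% of B cells. It spans 149 kb. Cxcr6 had 20 UMIs in 8 WT and 28 UMIs in 12 DKO cells, and Tmem176b 18 UMIs in 8 and 32 UMIs in 10 cells. Il1rl1, Il13, Il5 and Areg, markers of type 2 innate lymphoid cells, were at 0 in both libraries.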

How the data were processed

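Femoral marrow cells were processed with the Chromium Single Cell 3′ v3 kit, and the authors made the deposited counts with Cell Ranger 7.1.0 (named in the matrix header) on mm10, per the submitters' processing notes. The deposited values are raw UMI counts of 32285 genes per barcode, unfiltered in WT (1518290 barcodes listed) and called barcodes in DKO (14142). The reads of an exon and an intron cannot be told apart in these tables.

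UMIs were summed over the NK barcodes of a library. Ratios carry exact conditional binomial intervals, levels Poisson and shares Clopper-Pearson intervals (95%). Free RNA was bounded by the hemoglobin of WT barcodes with at most 100 UMIs, which DKO lacks. Spans and positions come from GENCODE M21 (GRCm38), and all 1823 measured genes matched. A 3′ word is a run of 31 bases in the last 500. Scrublet (scanpy 1.11.5) scored doublets. On simulated counts of this comparison (1823 genes), 57.6% of 2-fold changes passed the 2-fold limit, as did 0.2% of unchanged genes. The simulated sums were Poisson counts without variation between cells or mice. The 0.2% is therefore no rate of false calls for these data, where single barcodes held much of some genes' counts.

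The members and lists were chosen with earlier results of these data known. Named are Ddx41, Cgas, the selection genes, the 10 highest and 10 lowest ratios, the 4 members of each list with the highest mean CPM, every Klra gene, and marker genes of at least 1000 CPM. Other genes of the lists, and genes of the split by Gzma, were named after their values were seen. Alternatives varied the barcode selection, scaling, thinning, level limit, count added and free RNA. A few genes that the naming rule selects are not reported here.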

Additional observations from a re-analysis of the deposited data

How the results depend on the processing

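No paired analysis was possible because each genotype has 1 library, and for the same reason no replicate could be left out. Without the dividing barcodes 50 genes were at least 2-fold higher and 18 lower in DKO NK cells. Without both the dividing and the myeloid barcodes 22 were lower. Scaling by the median ratio gave 46 higher, and scaling without hemoglobin and ribosomal protein genes gave 81 lower. A mean of each cell's CPM gave 16 lower, and cells thinned to 1000 UMIs gave 230 higher and 74 lower. A level limit of 50 CPM gave 204 higher and 121 lower, and a limit of 200 CPM gave 23 and 18. Leaving out each gene's richest barcode gave 55 higher, and centring on span class gave 29 higher. The other settings kept both counts within 1.5 times of 84 and 44, but a count does not say which genes. Of the 84 and 44, thinning shared 39 and 13, and leaving out both kinds of barcode shared 41 and 12.

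Over barcodes under 20% hemoglobin the NK share was 0.6993% in WT and 0.5478% in DKO. Mxd1 reversed to -0.09403 without the myeloid barcodes and to -0.07065 without both kinds. The chemokine list's median reversed to 0.004279 after thinning and to 0.08206 without each gene's richest barcode. The ribosomal protein median reversed to 0.06053 when centred on span class, where the median of the 4 selection genes was 0.148. After thinning the type 1 innate lymphoid list's median was 1.159. The G2/M list, with 2 measured genes, had a median of -0.546 without dividing barcodes, -0.5938 without both kinds and -0.4221 after thinning. The cause was not tested except where a setting removes cells or counts by construction. The barcodes left out, the richest barcodes, the barcode richest in Il7r and the span classes were chosen after seeing the data. Precision was limited by 81 and 43 cells.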

Other observations

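The few measured genes of cell survival and of the p53 response had log2 ratios of DKO over WT above 0 in the NK cells. So did 1075 of all 1823 genes, whose median was 0.13. Of 3 measured members of the BCL2 family, Bcl2l11, which encodes the death-promoting protein BIM, had 30 UMIs in 20 of 81 WT cells and 45 UMIs in 23 of 43 DKO cells (log2 ratio 1.02, interval 0.33 to 1.75), Bcl2 was at 0.75 and Mcl1 at 0.30, with a list median of 0.75, against 0.20 in T cells and 0.17 in B cells. Of 4 measured genes of the Trp53 list all were above 0, with a median of 0.71, against 0.78 in T cells and 0.15 in B cells. In each of these 2 lists 1 gene was at least 2-fold higher and 0 lower, against 4.61% and 2.41% of all genes. Without the myeloid and dividing barcodes the medians were 0.41 for the BCL2 family and 0.53 for the Trp53 list, with 0 genes past 2-fold in either. The measured genes had a median span of 36.5 kb in the BCL2 family and 14.7 kb in the Trp53 list. All genes of 30 to 100 kb had a median log2 ratio of 0.32, and those of 10 to 30 kb -0.10. The part of span in these lists was not tested. The 4 genes of the Trp53 list were Trp53inp1 (22 and 39 UMIs, 1.25), Sesn1 (51 and 69, 0.88), Btg2 (78 and 84, 0.55) and Trp53 itself (32 and 29, 0.31, interval -0.47 to 1.08). Of 11 measured immediate early and stress genes 0 passed 2-fold, with a median of 0.30.

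Of the cGAS-STING list only Samhd1 reached the level limit (63 and 39 UMIs, -0.23). Tmem173, which encodes STING, had 14 UMIs in 11 WT and 21 UMIs in 13 DKO NK cells, a log2 ratio whose interval ran from -0.01 to 2.12. Xist had 0 UMIs in the NK cells of both libraries and Uty, a gene of the Y chromosome, had 21 and 26 UMIs.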
